A study of Mus musculus with 2 samples.

Results

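Ebf2 and Ebf3 neurons of the ventrolateral periaqueductal gray (vlPAG), a midbrain region, were selected on measured counts in single-nucleus RNA sequencing. A nucleus was a member when it held 3 or more unique molecular identifiers (UMIs, each counting 1 captured RNA molecule) of Ebf2 and Ebf3 together and at least 1 UMI among the transmitter genes Slc17a6, Slc17a7, Slc17a8, Gad1, Gad2 and Slc32a1. Members also had 0 UMIs of Tph2, at most 1 UMI of Th, and 0 UMIs of Abcc9 and Pdgfrb. Of 13822 nuclei with over 500 UMIs and under 20% mitochondrial UMIs, 2457 were members, 1108 in the NFD library and 1349 in the HFD library. Both libraries came from wild-type C57/BL6J mice fed a normal food diet (NFD) or a high-fat diet (HFD) for 7 weeks from 8 weeks of age, and each pooled 18 mice. There was 1 library per diet, so no difference between libraries or between groups of nuclei has a replicate check, and all intervals cover counting error only. The levels of Ebf2, Ebf3 and the 6 transmitter genes were used to choose the nuclei and are given as description.

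The Ebf proteins are helix-loop-helix transcription factors that bind DNA as dimers and act in the differentiation of neurons, B cells and fat cells. In the developing midbrain they are expressed as neurons leave the cell cycle and settle. Glutamate neurons load their vesicles with the transporters encoded by Slc17a6, Slc17a7 or Slc17a8, whereas GABA neurons make GABA with the enzymes encoded by Gad1 and Gad2 and load it with the transporter encoded by Slc32a1. The periaqueductal gray holds both kinds and is known for its part in defence, pain, autonomic control and feeding.

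Members made up 14.8% of nuclei in the NFD library (95% exact Clopper-Pearson interval 14.0 to 15.6) and 21.3% in the HFD library (20.3 to 22.4). They were 25.5% and 34.2% of the 4346 and 3945 nuclei that met every part of the rule except the Ebf count. The libraries differed in depth: members held a median of 7251.5 UMIs in the NFD library and 10905 in the HFD library, 9212103 and 17293543 UMIs in all. When every nucleus was first thinned to 2000 UMIs and 1 UMI of Ebf2 or Ebf3 was asked for, the order turned, with 12.2% of nuclei in the NFD library (11.4 to 13) and 10.3% in the HFD library (9.51 to 11.2), after 1141 and 1008 shallower nuclei were left out. The libraries held 7625 (NFD) and 6813 (HFD) barcodes and 41180006 and 55133689 UMIs in all. They shared 13 barcodes over all nuclei and 0 among members.

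Of 1628 nuclei in the NFD library and 1739 in the HFD library with 3 or more UMIs of Ebf2 and Ebf3, 484 and 334 had no transmitter UMI, 28 and 30 had Tph2 (serotonin synthesis), 6 and 12 had over 1 UMI of Th (dopamine synthesis), and 17 and 23 had Abcc9 or Pdgfrb (pericyte genes). Members held 3 to 45 UMIs of the pair in the NFD library, with a median of 5, and 3 to 61 in the HFD library, with a median of 7. The background level was read in microglia-marked nuclei, which should lack most neuronal RNA. There Ebf3 gave 82.5 and 94.9 CPM (counts of a gene scaled to a fixed total, so that groups of nuclei can be compared), against 4.85 and 9.49 for Ebf2. In 48 and 30 oligodendrocyte-marked nuclei Ebf2 and Ebf3 had 0 UMIs, which allows up to 21.6 and 37.6 CPM, so the Ebf3 level was not the same in both kinds of glial nuclei. Slc17a6 stood at 9.70 and 9.49 CPM in the microglia-marked nuclei and Gad2 at 4.85 and 19.0. The median depth of the 182 and 139 microglia-marked nuclei was 945.50 and 1390.0 UMIs.

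The threshold cut through a gradient. Among nuclei that met the rest of the rule, those with 2 UMIs of Ebf2 and Ebf3, just outside, numbered 347 in the NFD library and 236 in the HFD library, and those with 3, just inside, numbered 244 and 208. Slc17a6 stood at 148 and 122 CPM just outside and at 195 and 133 just inside. Gad2 stood at 164 and 187 just outside and at 140 and 129 just inside. Cacna2d1, which encodes the alpha-2-delta-1 auxiliary subunit of voltage-gated calcium channels, stood at 897 and 854 just outside and at 1044 and 1170 just inside, against 379 and 373 in nuclei with 0 Ebf2 and Ebf3 UMIs.

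**Figure D1:**
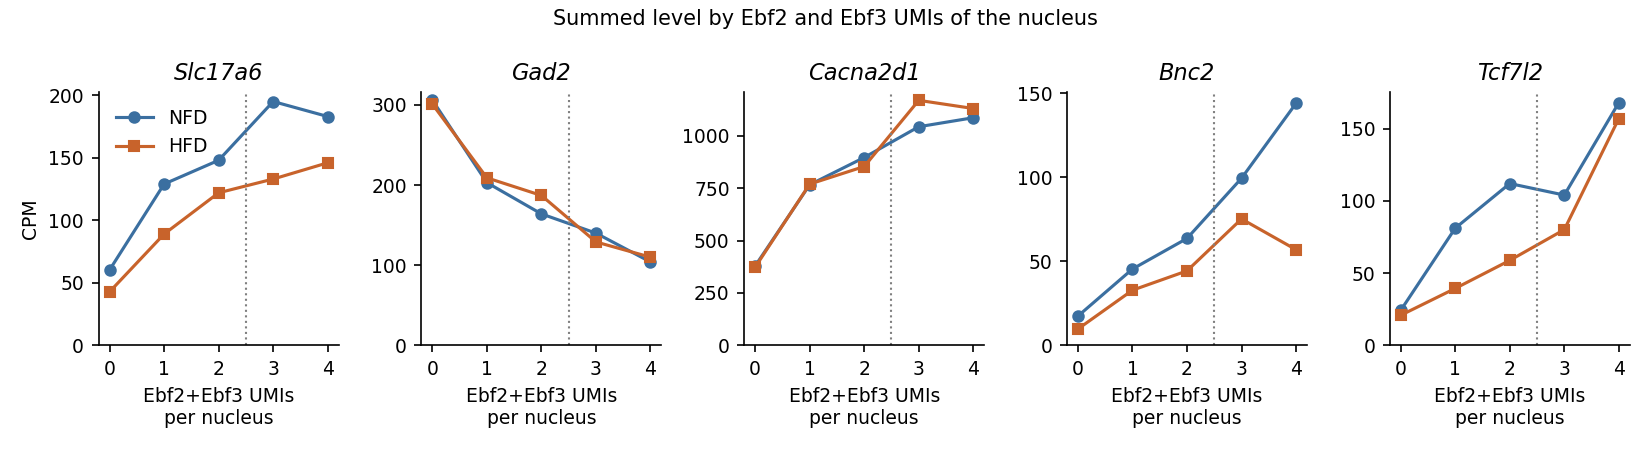
Summed CPM of 5 genes (vertical axes) in nuclei with 0 to 4 UMIs of Ebf2 and Ebf3 (horizontal axes), for nuclei meeting the other parts of the rule. Circles are the NFD library and squares the HFD library, and the dotted line marks the threshold between 2 and 3 UMIs, where Cacna2d1 moves from 897 to 1044 in NFD and from 854 to 1170 in HFD.

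The 2 genes mostly occurred together. In the NFD library 762 of 1108 members held UMIs of both Ebf2 and Ebf3 (68.8%, 66.0 to 71.5), 193 held Ebf2 alone (17.4%) and 153 held Ebf3 alone (13.8%). In the HFD library 949 of 1349 held both (70.3%, 67.8 to 72.8), 188 held Ebf2 alone (13.9%) and 212 held Ebf3 alone (15.7%). Their relative Ebf1, which the rule did not use, was present in 58.5% of members in each library (55.5 to 61.4 and 55.8 to 61.1), against 22.9% and 19.5% of other neurons. Other neurons were the 2284 and 2015 nuclei that met the rest of the rule with 0 UMIs of Ebf2 and Ebf3, with median depths of 5211.5 and 7906.0 UMIs. With members and other neurons all thinned to 2000 UMIs, Ebf1 was present in 38.7% and 35.7% of members and 14.2% and 10.9% of other neurons. Set against glutamatergic neurons without Ebf2 and Ebf3 only, Ebf1 went opposite ways in the libraries, with log2 ratios of 0.61 in NFD and -0.75 in HFD. Ebf4, the remaining family member, was not counted as different at the 2-fold threshold used below, with 17.0 and 20.1 CPM in members and 41.5 and 43.1 in other neurons.

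Ebf2 lies on chromosome 14 (67233292 to 67430918, plus strand) of the mouse build GRCm38, Ebf3 on chromosome 7 (137193673 to 137314445, minus strand) and Ebf1 on chromosome 11 (44617317 to 45008091, plus strand). The antisense transcript 4930438E09Rik lies inside Ebf2 on the opposite strand (chromosome 14, 67332042 to 67397742). It had 24.3 and 21.3 CPM in members and 1.39 and 0.225 in other neurons. Whether its reads can be told from those of Ebf2 depends on strand-aware counting, which the sources used here do not give, so its level is uncertain.

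The 250 bases before the annotated start of Ebf3 and of Cacna2d1 are shown because the first gene helped choose the nuclei and the second was the auxiliary calcium channel gene furthest above other neurons. They are given 5′ to 3′ from RefSeq on GRCm38.p6, at chr7:137314446-137314695 (minus strand) and chr5:15934441-15934690 (plus strand), with CpG dinucleotides in capitals.
Ebf3: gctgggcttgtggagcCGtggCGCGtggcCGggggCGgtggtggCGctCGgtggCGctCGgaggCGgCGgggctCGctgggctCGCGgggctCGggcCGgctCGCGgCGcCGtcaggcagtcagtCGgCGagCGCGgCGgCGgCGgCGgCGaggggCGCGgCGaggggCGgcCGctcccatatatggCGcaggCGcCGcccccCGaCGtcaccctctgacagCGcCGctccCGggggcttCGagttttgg
Cacna2d1: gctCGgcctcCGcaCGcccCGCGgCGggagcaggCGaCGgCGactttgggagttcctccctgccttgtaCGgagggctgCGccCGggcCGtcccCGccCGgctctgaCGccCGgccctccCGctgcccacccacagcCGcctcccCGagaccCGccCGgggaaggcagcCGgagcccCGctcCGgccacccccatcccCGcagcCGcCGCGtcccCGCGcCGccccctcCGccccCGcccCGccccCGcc
The Ebf3 stretch held 43 CpG dinucleotides and was 80% G or C, and the Cacna2d1 stretch held 36 and was 82.4% G or C. The palindromic Ebf motif TCCCNNGGGA, which reads the same on both strands, was looked for in RefSeq windows from 250 bases before to 50 bases after each start. It was in 0 of the 15 genes above other neurons that the promoter table holds, out of 22, and in 0 of 11 below other neurons, out of 13. Of the 6988 genes compared that the table holds, 94 had it (1.35%), and of the 27025 genes in the whole promoter set, 1.06% had it.

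Transmitter identity was read from each nucleus. Over all members, 715 nuclei of the NFD library held glutamate UMIs only (64.5%, 61.6 to 67.4), 227 held GABA UMIs only (20.5%, 18.1 to 23.0) and 166 held both (15%, 12.9 to 17.2). In the HFD library 886 held glutamate UMIs only (65.7%, 63.1 to 68.2), 233 held GABA UMIs only (17.3%, 15.3 to 19.4) and 230 held both (17.0%, 15.1 to 19.2). The intervals of the libraries overlapped for each kind. Slc17a6 was the vesicular glutamate transporter in use, found in 78.9% and 82.0% of members. Slc17a7 was found in 1 and 19 nuclei and Slc17a8 in 11 and 11. Gad2 was found in 30.5% and 30.8% of members, Gad1 in 13.3% and 16.2%, and Slc32a1 in 9.03% and 10.2%.

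A class was called where a nucleus held at least 3 transmitter UMIs and at least 80% were of 1 kind. This left 701 members of the NFD library (63.3%) and 679 of the HFD library (50.3%) without a call, 79.5% and 84.7% of which held glutamate UMIs only. Of the 407 called members of the NFD library, 171 were glutamatergic (42.0%, 37.2 to 47.0), 135 were GABAergic (33.2%, 28.6 to 38.0) and 101 were mixed (24.8%, 20.7 to 29.3). Of 670 called in the HFD library, 333 were glutamatergic (49.7%, 45.8 to 53.6), 206 were GABAergic (30.7%, 27.3 to 34.4) and 131 were mixed (19.6%, 16.6 to 22.8). Called nuclei gave GABA a larger part than all members did, and the cause was not tested. In GABAergic members Gad2 stood at 350 and 311 CPM, Gad1 at 136 and 121 and Slc32a1 at 66.3 and 47.8, and in glutamatergic members Slc17a6 stood at 361 and 304. Asking for 5 transmitter UMIs lowered the glutamatergic share to 24.1% and 32.9%.

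Mixed nuclei scored higher as possible doublets, and in the HFD library they were deeper. Their median was 9199.0 UMIs in the NFD library and 15385 in the HFD library, against 9223.0 and 12568 for glutamatergic members. Of 232 mixed members, 55 (23.7%) were among the 6% of nuclei with the highest doublet scores, against 42 of 504 glutamatergic (8.33%) and 42 of 341 GABAergic members (12.3%). In the HFD library the mixed share of called members was 9.41% up to 8000 UMIs, 16.9% from there to 16000 and 27.3% above 16000, and in the NFD library it was 22.6%, 24.7% and 32.0%. The part of doublets in the mixed class was not tested.

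Members made up a larger part of the nuclei with a glutamatergic call than of those with a GABAergic call. Among all nuclei with a glutamatergic call that met the rest of the rule, 171 of 309 in the NFD library (55.3%, 49.6 to 61.0) and 333 of 495 in the HFD library (67.3%, 62.9 to 71.4) had 3 or more UMIs of Ebf2 and Ebf3, while 82 (26.5%) and 100 (20.2%) had 0. Among nuclei with a GABAergic call, 135 of 1204 (11.2%, 9.49 to 13.1) and 206 of 1445 (14.3%, 12.5 to 16.2) had 3 or more, and 893 (74.2%) and 1029 (71.2%) had 0. The Ebf2 and Ebf3 counts and the transmitter genes were used to choose the nuclei, and the libraries differed in depth, so these shares are a description.

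Other neurons were the reference for the members' wider profile. A gene was counted as above or below when its summed level, with 10 CPM added, differed at least 2-fold the same way in both libraries. Of 9113 genes with a mean of at least 10 CPM, 22 were above (0.241%) and 13 below (0.143%). The genes above included the transcription factors Bnc2, Tcf7l2 and Lhx9, the neuropeptide genes Tac1 (substance P) and Adcyap1 (PACAP), Slc17a6 and Ebf1. Those below included Gad2 and Gad1, Sst (somatostatin) and the transcription factor genes Gata3, Pax5 and Pax8. Other neurons were mostly GABAergic, with 82.9% and 84.2% of those called. Against other glutamatergic neurons only, 17 genes were above and 18 below, of which 9 of the 22 above and 0 of the 13 below were shared.

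Bnc2, a zinc finger gene, stood at 153 CPM in the NFD library and 160 in the HFD library in members, and at 17.4 and 9.72 in other neurons, a log2 ratio of 2.58 and 3.11. Tcf7l2 is the Wnt pathway factor also known from thalamus and midbrain glutamate neurons. It stood at 137 and 160 in members and 24.2 and 20.8 in other neurons (log2 ratio 2.10 and 2.47). Its RNA was not found in neurons only. Tcf7l2 was detected in 28.6% and 34.5% of the shallower microglia-marked nuclei, against 27.6% and 32.5% of members. Lhx9, a LIM homeodomain factor, stood at 43.6 and 45.9 against 11.3 and 8.82 (1.33 and 1.57). These genes were counted because they differed at least 2-fold the same way in both libraries, so their shared direction is not a replicate check. Tac1 stood at 42.4 and 30.7 in members and 7.98 and 3.93 in other neurons (1.54 and 1.55), and Adcyap1 at 27.7 and 20.6 against 6.30 and 5.28 (1.21 and 1.0).

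Also above were the phosphodiesterase gene Pde7b (299 and 279 against 120 and 112 CPM), Adamts19, Clgn, Cpa6 and 5 long noncoding transcripts besides 4930438E09Rik, among them D130079A08Rik, A830082K12Rik and Lncenc1, each between 1.02 and 1.80 in log2 ratio. AC113458.1 overlaps Kcnab1 on the same strand, and Bnc2, Tcf7l2, Cacna2d1, Slc17a6, Cpne4, Pde7b and Cpa6 each overlap other annotated genes on their strand, so their reads are uncertain to that extent. Below, Gad2 stood at 85.2 and 85.6 in members against 306 and 301, Nxph1, which encodes the synaptic ligand neurexophilin 1, at 389 and 521 against 1440 and 1709, and Sst at 24.0 and 31.5 against 106 and 101. Gata3 stood at 7.06 and 8.38 against 34.9 and 33.6, Pax5 at 57.1 and 84.1 against 171 and 197, and Pax8 at 9.99 and 18.3 against 40.3 and 46.6. Gm14204, at 11.2 and 12.5 against 49.2 and 52.0, starts next to Slc32a1 on the opposite strand (chromosome 2, 158595472 to 158610723).

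Among the lists of channel and receptor genes nearly every gene was within 2-fold. Of the auxiliary calcium channel subunits 1 of 12 was above (Cacna2d1) and 0 were below. Of 38 potassium channel genes, 8 pore-forming calcium channel genes, 12 sodium and HCN channel genes, 13 GABA receptor genes, 22 glutamate receptor genes, 12 monoamine receptor genes, 12 receptors tied to feeding and 70 guidance and adhesion genes, 0 were above or below. The list medians ran from -0.08 to 0.09 in log2 ratio, against -0.03 over all 9113 genes. Of 35 midbrain transcription factor genes 2 were above and 3 below. Of 12 genes in the neuropeptide list, which also holds Nxph1 and some receptor genes, 2 were above and 2 below, Nxph1 among the latter. The hindbrain Hox genes, 19 in all, had 0 UMIs in members of either library, which allows up to 3 UMIs over each library.

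**Figure D2:**
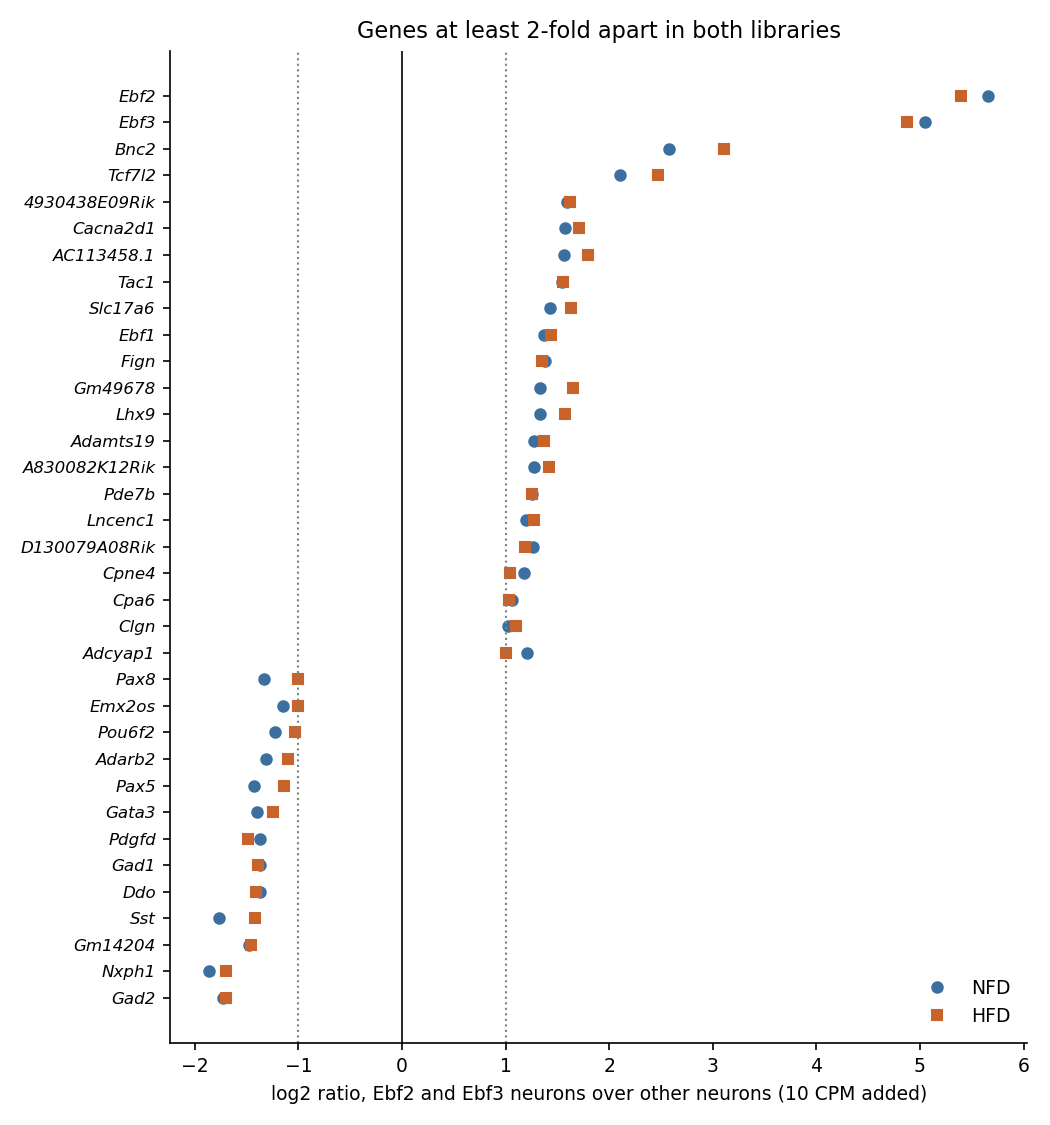
Log2 ratio of Ebf2 and Ebf3 neurons over other neurons (horizontal axis, 10 CPM added to each level) for the 22 genes above and 13 genes below, in the NFD library (circles) and the HFD library (squares); dotted lines mark 2-fold. The genes were picked for a ratio the same way in both libraries, so their shared direction is not a check. Ebf2 and Ebf3 are at the top by choice of the nuclei, Bnc2 and Tcf7l2 next, and Gad2 and Nxph1 lowest at -1.70.

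Cacna2d1 stood at 1145 CPM in the NFD library and 1243 in the HFD library in members, and at 379 and 373 in other neurons, a log2 ratio of 1.57 and 1.71. By transmitter call, glutamatergic members stood at 1348 and 1524, mixed members at 1071 and 1199, and GABAergic members at 365 and 440. Among the subgroups described below the order was not strict. Subgroup 12, with 91.9% glutamate UMIs, stood at 675 and 848, and subgroup 3, with 28.4%, at 759 and 1004. Subgroup 11, with 1.32%, stood at 91.5 and 62.2. Glutamatergic neurons without Ebf2 and Ebf3 stood at 1592 and 1513, so against these alone the members' level was not higher, and the log2 ratio of all members to them turned to -0.47 and -0.28. GABAergic neurons without Ebf2 and Ebf3 stood at 65.8 and 79.4. Summed over the GABAergic class, Cacna2d1 was therefore higher in members by a log2 ratio of 2.31 and 2.33. It was the gene furthest above there apart from Ebf2 and Ebf3 themselves. This did not hold in every subgroup. Subgroup 11, with 63 of the GABAergic calls, stood near other GABAergic neurons. Subgroups 1 and 3 held 108 and 97 of these calls. Over all nuclei of subgroup 1, Cacna2d1 stood at 948 and 915. The part of each subgroup in the class ratio was not tested. Its paralog Cacna2d3 ran the other way by class, with 142 and 168 CPM in glutamatergic members and 614 and 623 in GABAergic members. Cacna2d1 was detected in 88.3% and 90.5% of members, and in 76.5% and 79.7% after thinning to 2000 UMIs, against 32.1% and 26.6% of other neurons after thinning.

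When GABAergic members were set against other GABAergic neurons, 13 of 9004 genes were above (0.144%) and 1 was below (0.0111%). Besides Ebf2, Ebf3 and Cacna2d1 these were led by Tcf7l2 (47.1 and 52.9 against 2.68 and 3.42 CPM), Ebf1 (292 and 208 against 65.6 and 36.5) and Bnc2 (46.4 and 59.8 against 4.92 and 1.48). Sox2ot, a transcript overlapping Sox2 and several other genes on its strand, stood at 1174 and 593 against 340 and 223, and its antisense neighbour Gm38505 at 88.4 and 49.3 against 25.9 and 16.9. Pbx3, a homeodomain cofactor, stood at 474 and 365 against 148 and 136, and Nts (neurotensin) at 43.5 and 15.9 against 2.53 and 1.94. The gene below was Pdgfd, a growth factor gene, at 11 and 13.5 against 41.6 and 49.7. The number of nuclei was 135 and 206 GABAergic members and 893 and 1029 other GABAergic neurons. Slc17a6 stood at 12.5 and 16.8 in these GABAergic members, against 361 and 304 in glutamatergic members.

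When glutamatergic members were set against the 82 and 100 other glutamatergic neurons, 14 of 8918 genes were above (0.157%) and 28 below (0.314%). Bnc2 (204 and 240 against 40 and 37.1 CPM), Fign, a microtubule-severing ATPase gene (158 and 93.0 against 35.3 and 17.4), Tac1 (56.0 and 42.3 against 3.07 and 4.73), the hyaluronidase gene Cemip (54.3 and 59.7 against 6.15 and 12.6) and Tcf7l2 (193 and 188 against 55.3 and 60.8) were above. Slc17a8 was the gene furthest below (2.86 and 0.436 against 241 and 124), followed by Cntnap3, Lmx1b, which specifies serotonin neurons, and Ddc, the aromatic amino acid decarboxylase gene (12 and 10.2 against 66.1 and 56.0). Meis2, a homeodomain gene, stood at 103 and 107 against 307 and 544.

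Within the members, 26 of 8965 genes were above (0.290%) and 24 below (0.268%) in glutamatergic against GABAergic nuclei. Apart from the transmitter genes that defined the classes, glutamatergic members were higher in Bnc2 (204 and 240 against 46.4 and 59.8 CPM), Cacna2d1, Tcf7l2, Lhx9 (57.7 and 60.1 against 7.37 and 13.8), Nrn1 (neuritin), the substance P receptor gene Tacr1 (54.9 and 78.4 against 15.5 and 25.0), Lhx2 and the leptin receptor gene Lepr (44.6 and 53.8 against 13.3 and 12.9). GABAergic members were higher in Sox2ot (1174 and 593 against 115 and 86.7), Nxph1 (1037 and 1481 against 181 and 219), 9030622O22Rik, Gata3 (30.2 and 33.1 against 0.572 and 0.218) and Cacna2d3.

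The label markers did not describe the members as a whole. Beside Ebf2 and Ebf3, Fign was above other neurons (124 and 110 against 41.4 and 37.0 CPM), as was Cpne4, a calcium-dependent phospholipid-binding protein gene (288 and 253 against 122 and 118). Foxp2, a forkhead factor gene, was not (180 and 160 against 153 and 113), and neither was Synpr, the synaptic vesicle protein synaptoporin (186 and 171 against 127 and 129). Fign was detected in 25.2% and 25.6% of members and Foxp2 in 26.1% and 24.2%. The summed level of the 8 neuron markers was 4386 and 4525 CPM in members and 4592 and 4913 in other neurons, and 7 of the 8 had UMIs in members.

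Graph clustering divided the members into 14 subgroups of 27 to 449 nuclei, numbered by size, and each held nuclei of both libraries. The leading genes below are those on which such a clustering rests and are a description. Foxp2, Fign and Cpne4 were each highest in subgroup 8 (145 nuclei), where Foxp2 reached 1167 and 1535 CPM against 111 and 94.6 in all other members, Fign 896 and 795 against 69.7 and 77.8, and Cpne4 819 and 827 against 251 and 226. Synpr was 383 and 283 there, and 279 and 306 in subgroup 3. Subgroup 8 also had the highest Ebf2 (990 and 1113), and Ntng1, the axon guidance gene netrin G1, at 1829 and 1707. Of its transmitter UMIs, 94.3% were glutamate UMIs, and 135 of its nuclei held glutamate UMIs only.

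Subgroups 2, 4, 5, 7, 8, 12 and 14 were each at least 80% glutamate by transmitter UMIs, from 85.6% in subgroup 14 to 94.3% in subgroup 8, and held 525 of the NFD members (47.4%) and 664 of the HFD members (49.2%). Subgroup 2 (381 nuclei) led with Bnc2 (489 and 474 CPM against 99.2 and 107 in the rest), the transcription factor genes Onecut2, Tfap2d and Sox6, and Cck (cholecystokinin, 60.2 and 41.3 against 16.8 and 11.3). Subgroup 4 (207 nuclei) led with D130079A08Rik, Tcf7l2 (521 and 610), the calcium channel gene Trpv6, Zfhx4 and Zfhx3, and had low Ebf3 (115 and 97.8 against 343 and 298). Subgroup 5 (193 nuclei) led with Arhgap15, the neuropeptide S receptor gene Npsr1 (363 and 391 against 53.5 and 59.1), Rspo2 and Zeb2, with Bnc2 at 577 and 496.

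Subgroup 7 (180 nuclei) had the highest Tac1, at 324 and 235 CPM against 22.4 and 14.6 in the rest, with Atp8b1, Tcf7l2 (473 and 621) and the oestrogen receptor gene Esr1 (180 and 283 against 50.9 and 59.4), and with Tacr1, the receptor of its own peptide, at 159 and 158 against 41.9 and 48.3. Subgroup 12 (56 nuclei) led with Sox6 (764 and 603), Rnf220 and the serotonin receptor gene Htr1f (515 and 486), and its Fign was 0 in both libraries. Subgroup 14 (27 nuclei) led with Prdm6 (241 and 214 against 1.76 and 1.17), Vcan, Rnf220, the semaphorin genes Sema3e and Sema3a, and Lepr (263 and 161 against 28.2 and 33.0), and its Ebf1 was 926 and 2229. Tac1 and Lhx9 UMIs in 1 nucleus occurred in 55 members of the NFD library and 99 of the HFD library.

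Subgroup 11 (74 nuclei) was the only subgroup with at least 80% GABA UMIs, and only 1.32% of its transmitter UMIs were glutamate UMIs. It called 63 nuclei GABAergic and 0 glutamatergic. It led with St18, Satb1 and the neurexophilin gene Nxph1 (2023 and 2667 CPM). It had the transcription factor genes Gata3 and Tal1 at 33.7 and 29.2 and at 53.0 and 27.2. Its Ebf3 was 453 and 323 but its Ebf2 only 106 and 60.3, against 504 and 422 in the rest. Cacna2d1 was lowest here, at 91.5 and 62.2.

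The other 6 subgroups lay between. Subgroups 3 and 10 were mostly GABA, with 28.4% and 27.9% glutamate UMIs. Subgroup 3 (284 nuclei) led with Sox2ot (1600 and 1596 CPM), Gm38505, Nts (72.0 and 53.9 against 8.72 and 5.35), Sel1l3 and the BMP receptor gene Bmpr1b, and had Cacna2d1 at 759 and 1004. Subgroup 10 (108 nuclei) led with Palld, Spon1, Pax8 (118 and 153), Cacna2d3 (1787 and 1726 against 253 and 227), Pnoc (nociceptin, 103 and 109) and Penk (enkephalin, 404 and 259 against 39.2 and 35.1). Subgroups 6 and 9 were mostly glutamate, with 76.9% and 79.8% glutamate UMIs. Subgroup 6 (184 nuclei) led with Sox5, Lhx4 and Col24a1 and had the calcitonin receptor gene Calcr (52.9 and 123) and the most Cacna2d1 (2168 and 2317). Subgroup 9 (121 nuclei) led with Tfap2b (209 and 218 against 6.60 and 4.99), Filip1l and Esr1 (264 and 342), with low Ebf2 (157 and 110).

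Subgroup 1, the largest with 449 nuclei, held 101 of the 232 mixed calls beside 60 glutamatergic and 108 GABAergic ones, and 35.3% of its transmitter UMIs were glutamate UMIs. It led with 9030622O22Rik (59.5 and 86.8 CPM against 0.864 and 1.74), Adarb2, Meis2, Sim1 and Sst (52.5 and 81.2 against 14.7 and 13.3). Its median depth was 9113 UMIs in the NFD library and 16620 in the HFD library, the deepest in HFD, and 82 of its nuclei (18.3%, 14.8 to 22.2) were among the highest doublet scores. Subgroup 13 (48 nuclei) led with the astrocyte genes Slc1a3, Mertk and Slc4a4, and 32 of its nuclei (66.7%, 51.6 to 79.6) were among the highest doublet scores. Its astrocyte markers summed to 945 CPM and its granule cell markers to 369, against 16.6 to 192 and 1.84 to 121 in the other subgroups. The part of doublets in these subgroups was not tested.

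**Figure D3:**
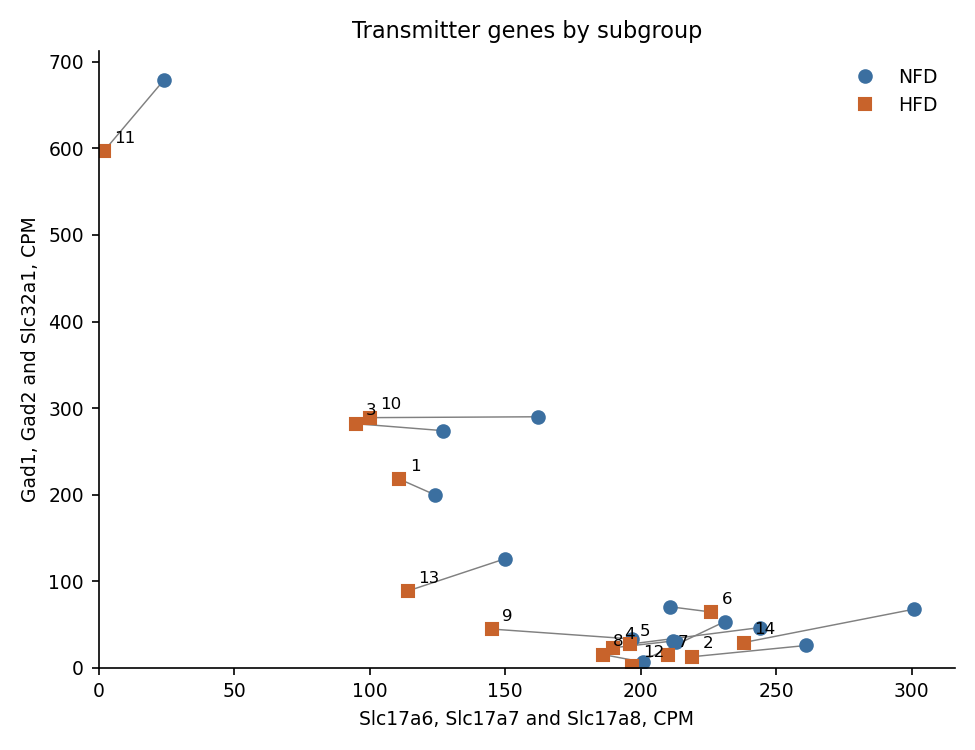
Summed CPM of the vesicular glutamate transporter genes (horizontal axis) and of the GABA genes (vertical axis) in the 14 subgroups, with the NFD library as circles and the HFD library as squares joined by a line and numbered at the square. Subgroup 11 stands alone at 679 and 597 on the GABA axis. Subgroups 1, 3, 10 and 13 hold both, and 7 subgroups lie at the glutamate end.

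**Figure D4:**
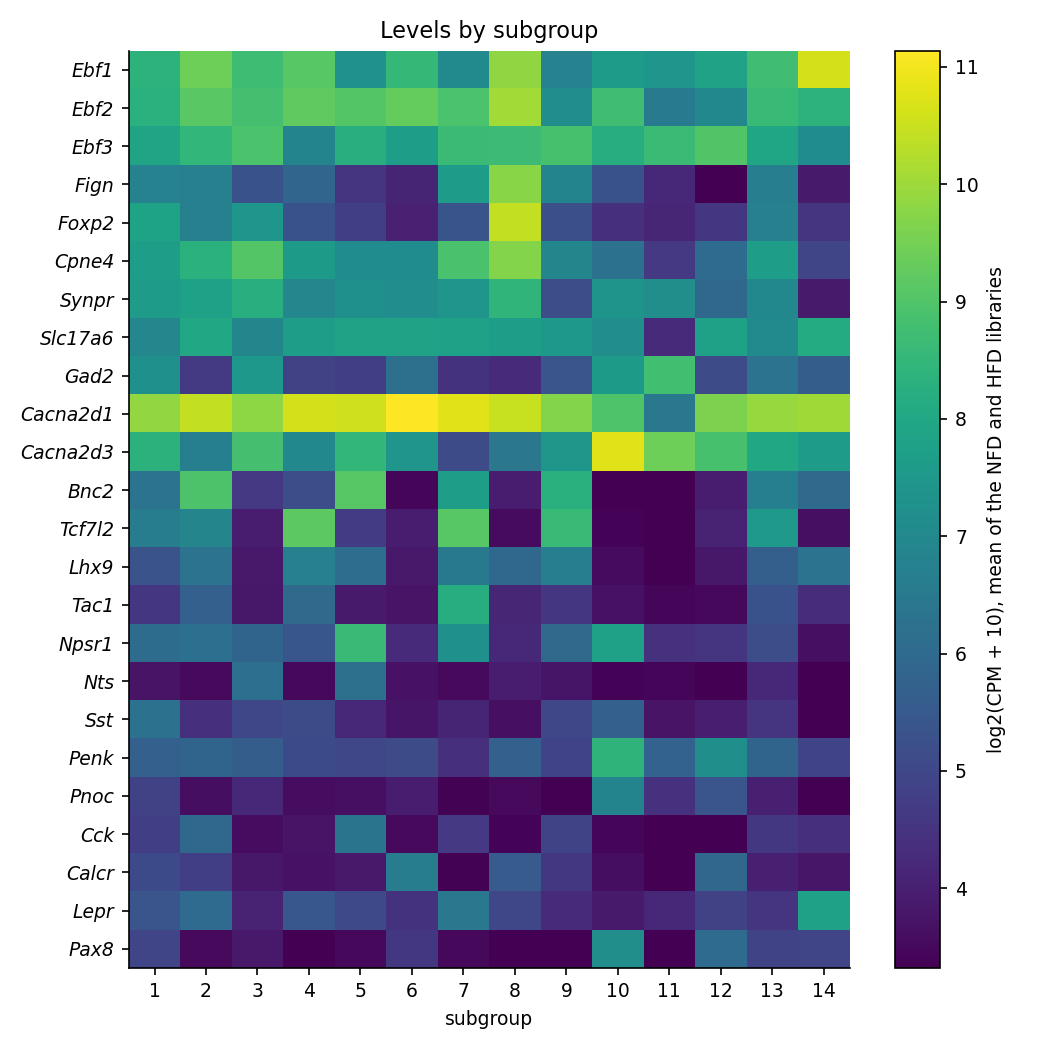
Mean level of the NFD and HFD libraries in each subgroup as log2 of CPM plus 10 (colour), for Ebf family, label marker, transmitter, calcium channel subunit, transcription factor and peptide or receptor genes (rows) in subgroups 1 to 14 (columns). Foxp2 and Fign are bright in subgroup 8, Tac1 in subgroup 7, Npsr1 in subgroup 5 and Cacna2d3 in subgroup 10, and Cacna2d1 is dim in subgroup 11.

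The diet comparison asked whether these neurons differed between mice on HFD and NFD. With 1 library per diet, a difference between libraries cannot be told apart from one of dissection, capture or handling. A gene was counted as above or below where the exact conditional binomial 95% interval of its HFD over NFD ratio lay wholly beyond 0.32 on either side of 0 on the log2 scale. Of 11987 genes with at least 100 UMIs in members, 63 were above (0.526%) and 153 below (1.28%), and the median log2 ratio was -0.02. In other neurons 238 of 12738 were above (1.87%) and 190 below (1.49%). Of the 63 genes above in members, 30 were also above in other neurons, and of the 153 below, 44 were also below and 6 were above.

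Heat shock genes, which encode chaperones that refold proteins, were the list with the most genes above. Of 23 measured, 18 had a ratio over 0, 7 were above and 0 below, with a median log2 ratio of 0.40 in members and 0.49 in other neurons. Hsph1, which encodes a chaperone of the HSP110 family, went from 33.3 to 87.2 CPM (log2 ratio 1.39, 1.21 to 1.57) in members and gave 1.45 (1.31 to 1.60) in other neurons. Stip1, a co-chaperone, went from 43.3 to 74.7 (0.79, 0.62 to 0.95), Hspa4l from 141 to 206 (0.54, 0.45 to 0.63) and Dnajb1 from 4.67 to 9.19 (0.98, 0.48 to 1.5). Hsph1 was higher in the HFD library in all 14 subgroups, with log2 ratios from 0.06 in subgroup 13 to 1.87 in subgroup 7. The intervals of subgroups 11, 13 and 14 reached 0 or below. Of 12 immediate early genes 1 was above, Nr4a3, an activity-induced nuclear receptor gene, with 19 and 86 UMIs (1.27, 0.54 to 2.07), and the list median was 0.27 against 0.22 in other neurons.

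Genes of cholesterol and fatty acid synthesis lay lower. Of 29 measured, 25 had a ratio under 0, 4 were below and 0 above, with a median of -0.37 in members and -0.29 in other neurons. Hsd17b7, an enzyme of cholesterol synthesis, had 76 and 48 UMIs (8.25 and 2.78 CPM, log2 ratio -1.57, -2.12 to -1.03) in members and -0.43 (-0.83 to -0.04) in other neurons. Msmo1, another enzyme of that pathway, went from 41.4 to 27.2 CPM (-0.60, -0.80 to -0.40) and gave -0.54 (-0.70 to -0.37) in other neurons. In nuclei chosen after thinning to 2000 UMIs the list median was -0.03 over the 10 genes that still passed the minimum.

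Of 13 mitochondrial transcripts 5 were below and 0 above, with a median of -0.28 in members and -0.04 in other neurons, and in nuclei chosen after thinning the median turned to 0.14. The nuclear transcript Malat1 stood at 38820 and 26210 CPM (-0.57, -0.57 to -0.56), and gave the same ratio in other neurons. The neuropeptide list also holds Nxph1 and receptor genes such as Tacr1. Of its 16 measured genes 1 was above (Nxph1) and 1 below (Nts). The list median was -0.34 in members and -0.39 in other neurons. Nts went from 16.8 to 8.79 (-0.94, -1.27 to -0.60) and gave -0.84 (-1.27 to -0.42) in other neurons. It was a leading gene of subgroup 3, which held 169 NFD and 115 HFD members. There it went from 72.0 to 53.9 (-0.42, -0.90 to 0.06), against 8.72 to 5.35 in all other members. In subgroup 5, which held 78 NFD and 115 HFD members, it went from 85.6 to 41.8 (-1.03, -1.63 to -0.44). The part of the subgroups' sizes in the Nts ratio over all members was not tested. Nxph1 went from 389 to 521 (0.42, 0.37 to 0.48) and gave 0.25 (0.22 to 0.27) in other neurons. In subgroup 1 it stood at 717 and 1122, against 281 and 301 in all other members, and the part of that subgroup in its ratio was not tested. The transcription factor genes Pax8 and Pax5 were above, at 0.87 (0.53 to 1.22) and 0.56 (0.41 to 0.70). Pax8 was a leading gene of subgroup 10, which held 30 of the 1108 NFD members and 78 of the 1349 HFD members. It stood at 118 and 153 CPM within that subgroup (0.37, -0.26 to 1.06) and at 7.55 and 10.9 in all other members, and the part of the subgroups' sizes in its ratio was not tested. Nos1, the neuronal nitric oxide synthase gene, went from 13.5 to 21.3 (0.66, 0.36 to 0.97) while other neurons gave 0.03 (-0.15 to 0.22).

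The genes furthest above included markers of cerebellar granule cells, which are not vlPAG neurons. Gabra6 had 1 UMI in NFD members and 107 in HFD members (log2 ratio 5.83, 3.32 to 11.15), Il16 had 10 and 91 (2.28, 1.33 to 3.39) and Etv1 had 32 and 168 (1.48, 0.93 to 2.08), and each had a larger ratio in other neurons (8.30, 3.41 and 2.13). The 8 granule cell markers summed to 6.95 and 29.0 CPM in members, with 6 and 7 of 8 detected, and to 10.5 and 92.7 in other neurons. Neurod1 had 0 UMIs in members and in other neurons of both libraries. The part of granule cell RNA in these ratios was not tested. Colec12, a scavenger receptor gene, had 50 and 248 UMIs (1.40, 0.96 to 1.87, and 0.40, 0.03 to 0.77, in other neurons), but other annotated genes overlap it on its strand. Plod1, a collagen-modifying enzyme gene, gave 1.46 (0.82 to 2.16) and the metalloprotease gene Tll1 1.07 (0.76 to 1.40), and both were also higher in HFD other neurons, at 1.89 and 0.87.

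The genes furthest below included Dnah12 (95 and 52 UMIs, -1.78, -2.29 to -1.28), Cfap43 (-1.46, -2.07 to -0.86) and Spef2 (-1.25, -1.82 to -0.68), genes of motile cilia, which gave 1.39, 1.14 and 2.10 in other neurons. Much of the Dnah12 lay in subgroup 13, where it stood at 276 CPM in the NFD library and 33.3 in the HFD library, against 3.01 and 2.36 in all other members. With mitochondrial UMIs held under 5% its ratio was -0.89 (-1.47 to -0.30). The 8 ependymal markers summed to 39.4 and 27.1 CPM in members and 46.2 and 167 in other neurons, with 7 of 8 detected in members of each library, and their part in these ratios was not tested. Kif27, a kinesin gene tied to cilia, gave -1.14 (-1.58 to -0.71) with 0.05 in other neurons, and Cracr2a gave -1.13 (-1.67 to -0.58).

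The Ebf genes and the label markers were not counted as above or below. Ebf2 went from 495 to 411 CPM (-0.27, -0.32 to -0.21), Ebf3 from 322 to 282 (-0.19, -0.26 to -0.12), Ebf1 from 423 to 389 (-0.12, -0.18 to -0.07) and the other 4 label markers by -0.12 to -0.19. Ebf2 and Ebf3 chose the nuclei at unequal depth. Their direction turned in nuclei chosen after thinning, to 0.14 (-0.02 to 0.29) and 0.14 (-0.03 to 0.32), and in members with at most 16000 UMIs they gave -0.09 (-0.15 to -0.03) and -0.05 (-0.13 to 0.02). Cacna2d1 went from 1145 to 1243 (0.12, 0.09 to 0.15) in members and from 379 to 373 (-0.02, -0.08 to 0.03) in other neurons, and 0 of 13 auxiliary calcium channel genes were above or below. By subgroup its ratio ran from -0.56 (-1.42 to 0.34) in subgroup 11 to 0.75 (0.40 to 1.12) in subgroup 10, where it went from 369 to 621 on 75 and 556 UMIs. The interval lay above 0 in 7 of the 14 subgroups and below 0 in none.

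**Figure D5:**
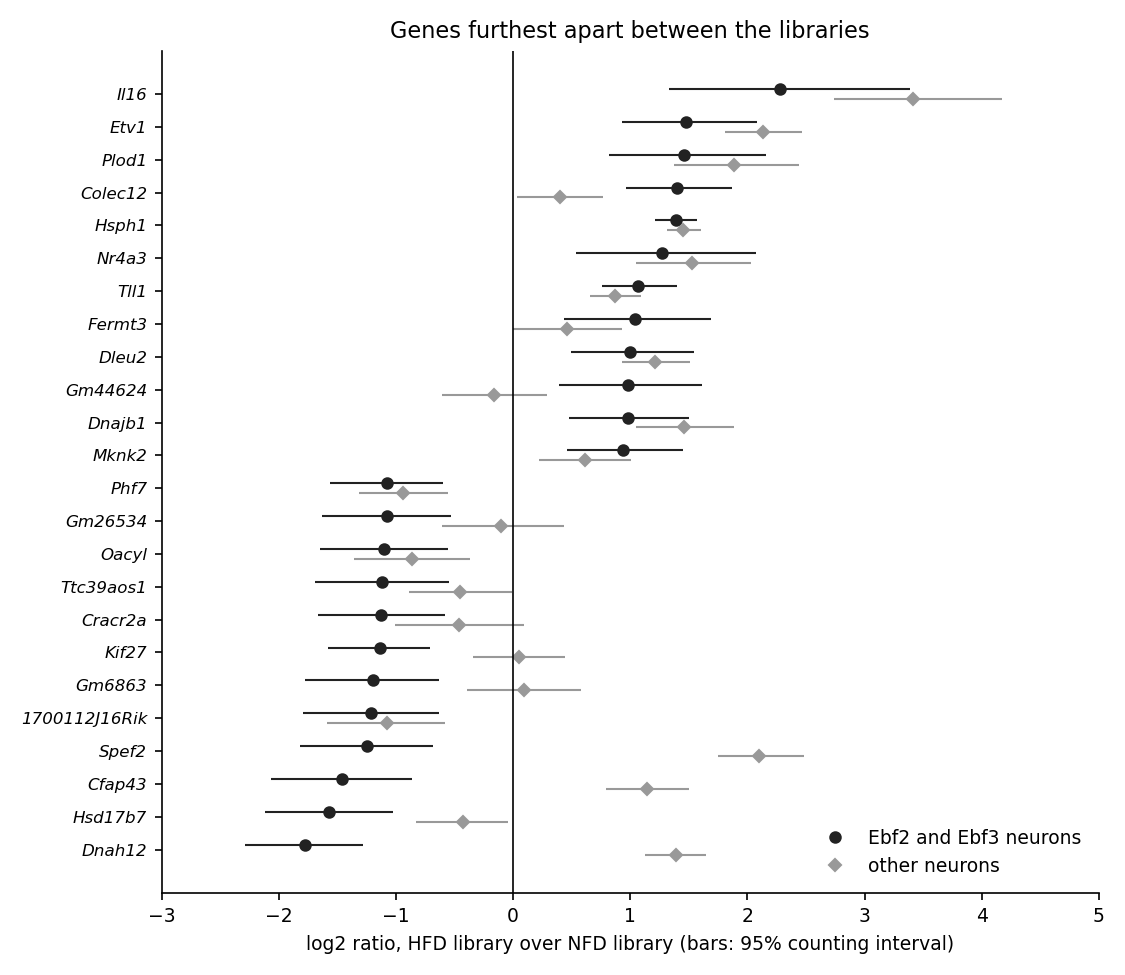
Log2 ratio of the HFD over the NFD library (horizontal axis) for the 12 genes furthest above and 12 furthest below with at least 10 UMIs in each library, in Ebf2 and Ebf3 neurons (black circles) and other neurons (grey diamonds), with bars for the 95% counting interval. Hsph1 lies at 1.39 and 1.45 in the 2 groups, and Dnah12, Cfap43 and Spef2 lie below 0 in Ebf2 and Ebf3 neurons and above 0 in other neurons.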

How the data were processed

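Nuclei of the dissected vlPAG were profiled with the 10x Genomics 3′ V3 chemistry, 1 library per diet. The authors' deposited files hold UMI counts per gene and barcode, not normalized, made with bcl2fastq 5.01 and Cell Ranger (4.0.0 per the file headers) on GRCm38, and their processing notes name Seurat 3.1.1. Nuclei with over 500 UMIs and under 20% mitochondrial UMIs were kept, as in the study's methods. Counts were summed over nuclei and divided by the total, as CPM, because a library is 1 sample; no test was made. Shares have exact Clopper-Pearson and ratios exact conditional binomial 95% intervals, which cover counting error only. The members, gene lists and comparisons were chosen with earlier results of these data known. Genes were named by rank: the Ebf family, label markers, transmitter genes and Cacna2d1, the 20 genes furthest above and 10 furthest below other neurons, 8 each way between diets and between transmitter classes, up to 4 per list, and up to 6 per subgroup. Genes named in the comparisons within a transmitter class, Tacr1, Lepr, Lhx2, Cacna2d3, Clgn, Nos1, Malat1 and the further subgroup genes were chosen after their values were seen. Members were clustered with scanpy 1.11.5 (Leiden, 1000 variable genes, 15 principal components, resolution 0.5). Scrublet's own threshold marked 1 and 0 nuclei, which is too few to use, so doublets were kept and the 6% with the highest scores were left out as an alternative. Positions are from GENCODE vM21. Calculations used Python with numpy and scipy, and the functions were tested on simulated data. A few genes that the naming rule covers are not reported here.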

Additional observations from a re-analysis of the deposited data

How the results depend on the processing

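No paired analysis was possible because each diet has 1 library, and for the same reason no replicate could be left out. The share of nuclei that were members moved to 19.4% (NFD) and 25.1% (HFD) with an Ebf2 and Ebf3 minimum of 2 UMIs and to 9.24% and 15.8% with a minimum of 5, and turned to 12.2% and 10.3% under the thinned rule (at least 1 Ebf2 or Ebf3 UMI after thinning nuclei to 2000 UMIs). The glutamatergic share of called members moved to 37.1% and 44.7% with the minimum of 2, 47.7% and 54.7% with 5, 25.5% and 25.0% under the thinned rule, 24.1% and 32.9% with at least 5 transmitter UMIs, and 12.5% and 24.2% with members thinned to 2000 UMIs, where few nuclei keep 3 transmitter UMIs. The mixed share moved to 18.2% and 15.6% under the thinned rule, 31.4% and 26.7% with a 90% share, and 12.1% in HFD members thinned to 2000 UMIs. Against other neurons, the genes above and below numbered 8 and 6 under the thinned rule, 45 and 26 against GABAergic neurons only, and 40 and 45 with 1 CPM added, and those below numbered 30 with nuclei weighted equally. Against other glutamatergic neurons only, Cacna2d1 gave -0.28, Slc17a6 -0.44 and Gad2 2.70, each reversed. Between diets, the genes above and below numbered 20 and 8 under the thinned rule (6 and 4 shared with those reported), 788 and 1476 with nuclei weighted equally and no counting interval, 11 and 22 with members thinned to 2000 UMIs (9 and 18 shared), and 41 and 42 in glutamatergic members (13 and 22 shared), and those below numbered 301 with a minimum of 20 UMIs. The lipid synthesis median moved to -0.03 under the thinned rule and -0.21 with thinned members, the mitochondrial median turned to 0.14 under the thinned rule and moved to -0.15 in members with at most 16000 UMIs, and the neuropeptide median moved to -0.24 with thinned members and -0.15 in glutamatergic members. Thinning leaves fewer UMIs per gene and so fewer genes past the minimum; the cause of the other changes was not tested. Clustering gave 10 subgroups at resolution 0.3 and 18 at 1.0. Leaving out subgroup 13, chosen after seeing the data, gave 22 and 18 genes against other neurons and 60 and 140 between diets. Ratios between diets that passed no threshold also turned under the thinned rule, Ebf2 to 0.14, Ebf3 to 0.14 and Slc17a6 to 0.19, and Ebf3 gave 0.01 in glutamatergic members.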
